A study of Bos taurus with 8 samples.

Results

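The miR-10, miR-99, miR-100 and miR-125 family was followed in small RNA from cattle sera and from exosomes isolated out of the same sera. Its members were chosen by name, as every table row for miR-10a, miR-10b, miR-99a, miR-99b, miR-100, miR-125a or miR-125b, with either arm of the hairpin. This gave 8 of the 534 miRNAs listed, which were miR-10a, miR-10b, miR-99a-5p, miR-99a-3p, miR-99b, miR-100, miR-125a and miR-125b. Levels were given in RPM, the reads of a miRNA scaled to a fixed total of miRNA reads per library. All 8 members passed the filter for testing (over 1 RPM in 2 or more animals of a sample type), as did 365 miRNAs in all. Every library had 10 or more reads of 128 miRNAs, of which 5 were members, and miR-100, miR-99a-5p and miR-99a-3p were not among these.

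The miR-10 family is among the oldest miRNA families of animals, and miR-125 is the mammalian counterpart of lin-4, the first miRNA described in worms. A miRNA recognises its target mRNAs mainly through its seed, the bases near its 5′ end. MiR-10a and miR-10b share one seed, miR-99a-5p, miR-99b and miR-100 share another, and miR-125a and miR-125b share one more, whereas miR-99a-3p is the opposite arm of the miR-99a hairpin. The genes of miR-10a and miR-10b lie in HOX gene clusters, which pattern the body axis. The miR-99 and miR-100 seed is known for targeting mTOR and IGF1R, and miR-125 for its roles in blood cell differentiation and for targeting LIN28. In RefSeq's table of cattle genes (assembly ARS-UCD2.0), used for gene order and no coordinates, MIR10A lay beside HOXB4 and MIR10B between HOXD4 and HOXD8. The other members lay in 3 clusters with a let-7 gene in the middle of each, which were MIR99B, MIRLET7E and MIR125A, then MIR100, MIRLET7A-2 and MIR125B-1, and MIR99A, MIRLET7C and MIR125B-2. MiR-125b thus has 2 genes, and the tables have a single row for its mature product.

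The 4 cows were healthy lactating Holsteins under no treatment, and each gave 1 serum library and 1 exosome library. Exosomes, small vesicles released by cells, were isolated with a commercial kit, and RNA was extracted from them with another maker's kit than from sera, so that the sample type and the extraction cannot be told apart. A miRNA table holds no protein marker of exosomes, so the label could not be checked. As RPM is a share, less of a miRNA and more of the others cannot be told apart either.

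The reads behind the RPM values could be recovered, and totals ranged from 264769 to 590162 miRNA reads for sera and from 60682 to 157710 for exosomes. A level of 3 reads was worth 5.08 to 11.3 RPM in the former and 19.0 to 49.4 RPM in the latter. Both libraries of cow 1 stood apart from the rest in muscle miRNAs (miR-1, miR-133a, miR-133b, miR-206, miR-208b and miR-499), of which 5 of 6 had reads. Their summed level was 23097 RPM in the serum and 26301 RPM in the exosomes of cow 1, of which miR-133a made up 21761 and 25279 RPM. In the other cows the sum was 203 to 244 RPM in the serum and 164 to 342 RPM in the exosomes. MiR-206 was at 0 in 8 libraries and miR-1 in 7, among them the exosomes of cow 1. The 4 erythrocyte miRNAs (miR-451, miR-144, miR-486 and miR-363) all had reads and summed to 154769 to 239033 RPM for sera and 195412 to 384867 RPM for exosomes. The sum was higher in the exosomes of 4 of 4 cows through miR-486. MiR-144 had more in the serum of 4 of 4 cows (log2 fold change 1.10, limma, FDR = 0.0149), as did miR-363, with few reads in exosomes. MiR-451 had more in the serum of cows 2 and 3 only. The 5 leukocyte and platelet miRNAs (miR-223, miR-150, both arms of miR-142 and miR-155) summed to 30286 to 39515 RPM and 31672 to 45813 RPM. The 4 liver miRNAs (miR-122, miR-885, miR-192 and miR-194) summed to 31794 to 57845 RPM and 22228 to 57497 RPM, more in the serum of 4 of 4 cows, mostly through miR-192, with miR-122 and miR-885 at 0 in 1 library each. Their part in the results was not tested, and results without cow 1 are given where a call or a sign rests on it.

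The family's share of all miRNA reads was 3.14% ± 0.759 for sera and 3.24% ± 0.953 for exosomes (SD, n = 4). From cow 1 to cow 4 it was 2.96%, 2.63%, 2.70% and 4.26% in serum, and 4.21%, 2.50%, 2.35% and 3.90% in exosomes. The serum had the larger share in 3 of 4 cows, cow 1 being the exception, and the sample types overlapped over most of their range. MiR-10b alone made up 72.0% ± 2.38 of the family's reads for sera and 76.1% ± 1.59 for exosomes (SD, n = 4), with the larger part in the exosomes of 4 of 4 cows.

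Reads cover the whole of a mature miRNA, so RPM was compared between members without a correction for length. Whether the library preparation took up different miRNAs equally was not tested, so abundance here means abundance of reads. In 8 of 8 libraries miR-10b was the most abundant member, followed by miR-10a and then miR-125a, and miR-99a-3p was the least abundant. MiR-10b was ranked 7 to 14 among all miRNAs of a serum and 5 to 12 among those of exosomes, and miR-10a 33 to 39 and 27 to 31. The 4 members in the middle were miR-125b, miR-100, miR-99a-5p and miR-99b. They lay between 314 and 599 RPM in sera and between 58.6 and 461 RPM in exosomes, and their ranges overlapped in both. Within libraries, miR-99b was above miR-125b in the exosomes of every cow, and not in every serum. The exact binomial 95% intervals of miR-99b and miR-100 were apart in the exosomes of cows 3 and 4. They were 206 to 430 and 21.5 to 127 RPM in cow 3, and 357 to 575 and 187 to 353 RPM in cow 4. In the exosomes of the other cows they overlapped. Members with one seed have closely related sequences, and how the alignment divided reads between them was not tested, so their separate levels are uncertain to that extent. No member had the same values as any other miRNA.

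**Figure D1:**
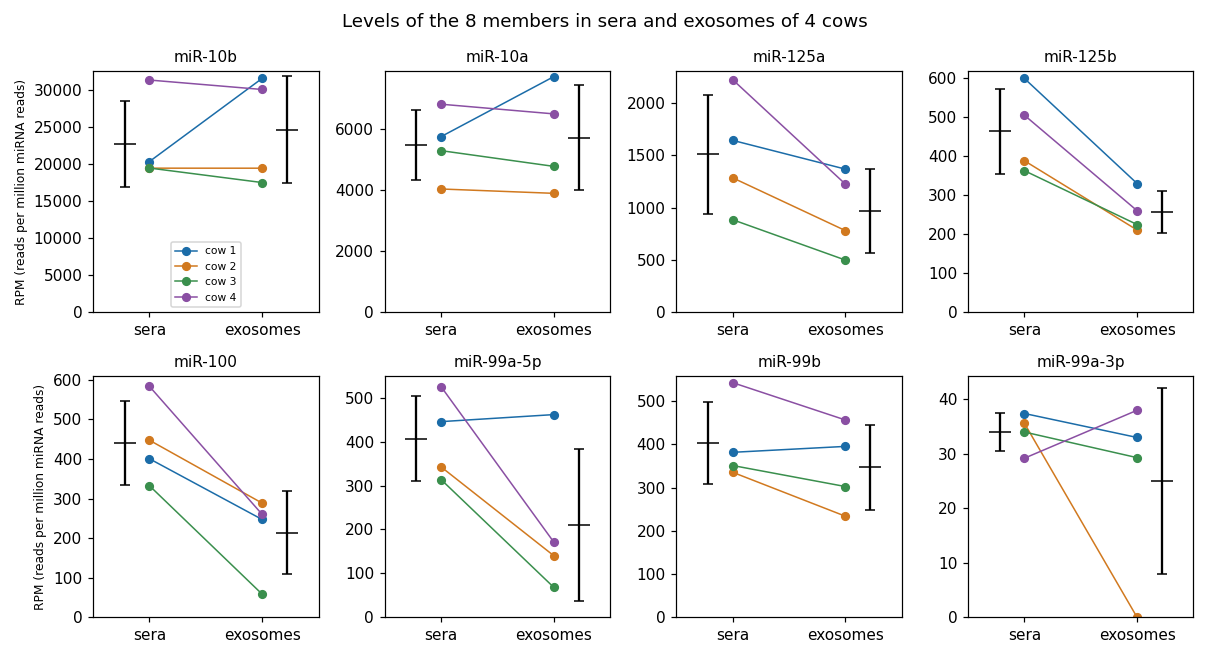
RPM of each member (y axis, linear from 0, with its own scale in each panel) in the serum and the exosomes of the 4 cows, with a line joining the libraries of a cow and black bars for mean ± SD over 4 libraries. MiR-125b and miR-100 are lower in the exosomes of all 4 cows. Their points do not overlap between the sample types, though intervals of counting error, not drawn, do. MiR-10b and miR-10a are nearly level in cows 2, 3 and 4 and higher in the exosomes of cow 1.

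Most miRNAs had a higher RPM in sera. The median log2 fold change (FC, sera minus exosomes, on the scale of log2(RPM + 1)) was 0.57 for the 365 miRNAs tested and 0.31 for the 128 with 10 or more reads in each library. Scaled to all sequences in analysis (reads of suitable length, as counted by the study) in place of miRNA reads, the median moved by -0.71, so an FC is read against the median rather than against 0. The members' median was 0.76, and 6 of 8 had an FC above 0, beside 74.8% of all miRNAs tested. Below, values relative to the median and percentages with a lower FC refer to the 365 miRNAs. MiR-10a, miR-10b, miR-99b, miR-125a and miR-125b are among the 128, whose median was lower.

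The HOX cluster miRNA miR-10b had similar RPM in both sample types, which placed it below the median of all miRNAs. In cows 1 to 4 the sera had 20331, 19435, 19451 and 31329 RPM, and the exosomes had 31558, 19431, 17493 and 30055 RPM. The serum of cow 4 and the exosomes of cows 1 and 4 were at 30055 RPM or above, the other 5 libraries were at 20331 RPM or below, and the sample types overlapped. The means were 22637 ± 5810 RPM for sera and 24634 ± 7197 RPM for exosomes (SD, n = 4), with a log2 FC of -0.11 (standard error 0.25, limma with Benjamini-Hochberg adjustment, FDR = 0.834), and 18.9% of the miRNAs tested had a lower FC. Relative to the median this was -0.68, and per sequence in analysis the log2 FC was -0.82 (FDR = 0.396). Its sign turned without the exosomes of cow 1 (0.030) or of cow 4 (0.0064). With 1792 to 13968 reads per library, the counting error was 0.846% to 2.36% of the level, far below the spread between cows.

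With the cow as a replicate block, edgeR on the recovered reads found miR-10b higher in exosomes (log2 FC of -0.31, FDR = 0.0406), while limma with the block gave an FDR of 0.556. The edgeR call was lost without both libraries of cow 1 (log2 FC of -0.27, FDR = 0.262), of cow 2 (-0.30, FDR = 0.262) or of cow 4 (-0.38, FDR = 0.0667), and without cow 3 it was held (-0.39, FDR = 0.000791). The part of edgeR's TMM scaling in this call was not tested, as no fit with the block used library totals. Without the block, log2 FCs by edgeR with TMM were shifted by a median of -0.23 from those of limma, over all miRNAs tested. These fits also differ in scale, that of limma being log2(RPM + 1). EdgeR with library totals and no block gave miR-10b a log2 FC of -0.12 (FDR = 0.835). By RPM the serum of cows 2, 3 and 4 was level with or above the exosomes.

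MiR-10a, the other HOX cluster member, followed miR-10b at a lower level. In cows 1 to 4 the sera had 5760, 4041, 5299 and 6823 RPM, and the exosomes had 7729, 3899, 4783 and 6506 RPM. Cow 2 was lowest in both sample types, and cow 1 was the one cow with more miR-10a in exosomes. The means were 5481 ± 1153 RPM for sera and 5729 ± 1717 RPM for exosomes (SD, n = 4), with a log2 FC of -0.04 (95% interval by limma -0.56 to 0.48, FDR = 0.955), below which lay 23.6% of the miRNAs tested. Relative to the median this was -0.61, and per sequence in analysis the log2 FC was -0.75 (limma, unadjusted p = 0.0413, FDR = 0.34). By edgeR with the replicate block the log2 FC was -0.24 (FDR = 0.187), and it was -0.29 with an FDR of 0.0372 without both libraries of cow 3. The sign by limma turned without the serum of cow 2 (0.099) and without the exosomes of cow 1 (0.12) or of cow 4 (0.039).

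MiR-125b, a broadly expressed miRNA, had a lower level in the exosomes of every cow. From cow 1 to cow 4 the sera had 599, 388, 363 and 505 RPM, and the exosomes had 330, 211, 225 and 260 RPM. The lowest serum was above the highest exosome library, and the log2 difference within cows was 0.69 to 0.95. The means were 464 ± 109 RPM for sera and 256 ± 53.2 RPM for exosomes (SD, n = 4), with a log2 FC of 0.85 (standard error 0.27), which was past the threshold before and not after adjustment (limma, unadjusted p = 0.00825, FDR = 0.0882). Tested only among miRNAs with 10 or more reads in each library, the same difference had an FDR of 0.0332. Of the miRNAs tested, 64.1% had a lower FC.

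Its relative miR-125a also had a lower level in the exosomes of every cow, and it varied more between cows. In cows 1 to 4 the sera had 1643, 1284, 884 and 2223 RPM, and the exosomes had 1368, 780, 498 and 1224 RPM. Cow 3 was lowest in both sample types, and the exosomes of cow 1 exceeded the sera of cows 2 and 3, so the sample types overlapped. The means were 1509 ± 568 RPM for sera and 967 ± 401 RPM for exosomes (SD, n = 4), with a log2 FC of 0.67 (standard error 0.34, limma, FDR = 0.231) that was -0.043 per sequence in analysis. Of the miRNAs tested, 55.3% had a lower FC, so miR-125a lay near the median of all 365. It lay above the median of the 128 with 10 or more reads in each library, which was 0.31.

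MiR-100, of the seed known for targeting mTOR, was the other member whose sera all exceeded the exosomes. From cow 1 to cow 4 the sera had 401, 447, 332 and 583 RPM, and the exosomes had 247, 289, 58.6 and 260 RPM. The exosomes of cow 3 lay far below the others, at 6 reads. Their exact binomial (Clopper-Pearson) 95% interval was 21.5 to 127 RPM, while that of the same cow's serum was 267 to 409 RPM. The latter, of the lowest serum, overlapped the interval of the highest exosome library, which was 203 to 398 RPM in cow 2. Intervals and floors cover counting error only, since PCR copies could not be told from separate molecules. The means were 441 ± 106 RPM for sera and 214 ± 105 RPM for exosomes (SD, n = 4), with a log2 FC of 1.24 (standard error 0.45, limma, unadjusted p = 0.0157, FDR = 0.12), above that of 80.0% of the miRNAs tested.

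When the cow entered as a replicate block, miR-100 was past both thresholds by limma (FDR = 6.19e-07). The log2 difference within cows 1 to 4 was 0.69, 0.63, 2.48 and 1.16. So small an FDR rests on a spread estimated across many miRNAs, while that of miR-100 between cows is known far less well. Without both libraries of cow 3 the blocked log2 FC was 0.83 (FDR = 0.00225), under the threshold on fold change. By edgeR with the block it was 0.88 (FDR = 0.000446), and 1.17 without cow 2 (FDR = 0.000732), where it passed both.

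MiR-99a-5p, which has the same seed and a gene beside that of let-7c, had a lower level in the exosomes of 3 cows and was level in cow 1. In cows 1 to 4 the sera had 445, 342, 314 and 525 RPM, and the exosomes had 461, 140, 68.3 and 171 RPM. The highest exosome library exceeded the lowest 6.76 times, against 1.67 times among sera, with 7 to 28 reads per exosome library. The means were 407 ± 97.1 RPM for sera and 210.3 ± 173 RPM for exosomes (SD, n = 4), with a log2 FC of 1.26 (standard error 0.47, limma, unadjusted p = 0.0181, FDR = 0.124), above that of 80.3% of the miRNAs tested.

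The exosomes of cow 1, the library with the fewest reads and with high muscle miRNAs, decided the call of miR-99a-5p, since without them its log2 FC was 1.75 and past both thresholds (limma, FDR = 0.0115). With the block and all libraries it was also past both (limma, FDR = 1.39e-06), but not without both libraries of cow 3 (log2 FC of 0.95, FDR = 0.000783). The log2 difference within cows 1 to 4 was -0.05, 1.28, 2.18 and 1.61, and the limit on small FDR values given for miR-100 holds here too. By edgeR with the block the log2 FC was 0.98 (FDR = 0.000151), and 1.32 without cow 1 (FDR = 1.2e-06).

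MiR-99b, whose gene lies with those of let-7e and miR-125a, differed less between sample types. By cow, in the same order, the sera had 382, 336, 351 and 543 RPM, and the exosomes had 396, 234, 303 and 457 RPM. The serum had more in 3 of 4 cows, and the sample types overlapped. The means were 403 ± 95.3 RPM for sera and 347 ± 98.5 RPM for exosomes (SD, n = 4), with a log2 FC of 0.23 (95% interval by limma -0.38 to 0.85, FDR = 0.668), which was -0.091 by DESeq2 on the recovered reads and -0.46 per sequence in analysis.

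MiR-99a-3p, the less abundant arm of its hairpin, was at the limit of detection in exosomes. The sera had 37.4, 35.6, 34.0 and 29.2 RPM, from 10, 21, 9 and 13 reads. The exosomes of cows 1, 3 and 4 had 33.0, 29.3 and 38.0 RPM, from 2, 3 and 6 reads. Those of cow 2 had 0 of 128252 reads, for which the exact binomial 95% interval reached 28.8 RPM. The difference within cow 2 thus rests on a library at 0, and no difference was detectable at this depth (log2 FC with a 95% interval by limma of -1.03 to 3.64, FDR = 0.482).

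**Figure D2:**
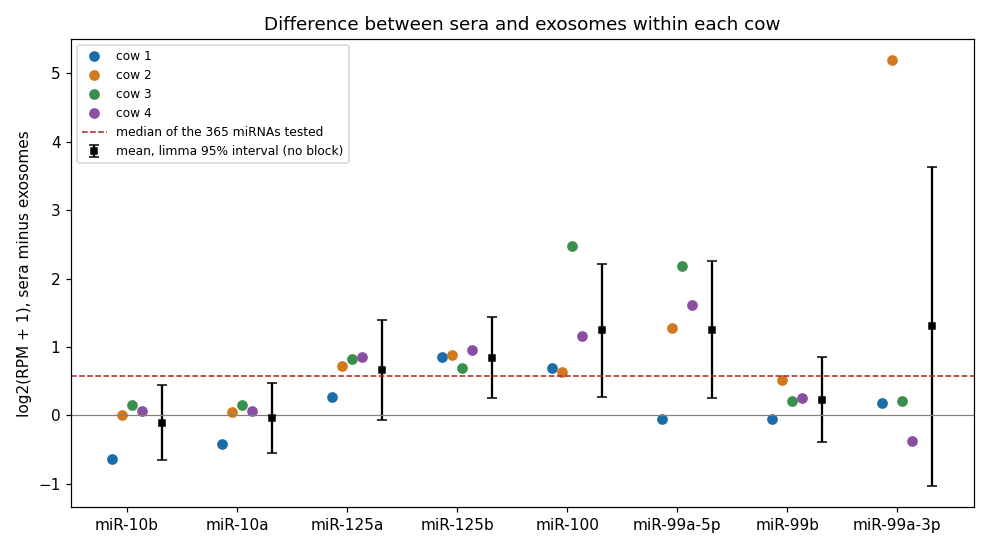
Difference of log2(RPM + 1) between the serum and the exosomes of each cow (coloured points), with the mean and its 95% interval by limma without a block (black squares) and the median of the 365 miRNAs tested (dashed line, 0.57). All 4 cows lie above 0 for miR-125a, miR-125b and miR-100, and the point at 5.19 for miR-99a-3p comes from a library with 0 reads.

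At an FDR under 0.05 with a log2 FC over 1 or under -1, limma called 0 of 8 members, beside 3.01% of all miRNAs tested as higher in sera and 1.37% as higher in exosomes. At an unadjusted p under 0.05, 3 members (miR-100, miR-99a-5p and miR-125b) were higher in sera, beside 22.7% of all, and 0 in exosomes, beside 3.01%. EdgeR called 0 members, beside 1.64% in sera and 2.19% in exosomes, with 3 members at an unadjusted p under 0.05 as higher in sera (9.32% of all) and 0 in exosomes (5.75%). DESeq2 also called 0, beside 0.822% and 3.56%, with 0 members at an unadjusted p under 0.05 in either direction (6.58% and 7.95% of all).

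The direction was the same in all cows for 3 members, miR-125a, miR-125b and miR-100, which had more in serum, beside 30.7% of all miRNAs tested, and 0 members had more in the exosomes of every cow, beside 4.11%. For miR-100 and miR-125b every serum lay above every exosome library, beside 11.8% of all, and the reverse held for 0 members, beside 2.47%. Among miRNAs with 10 or more reads in each library, 2 of 5 members had more in every cow's serum, beside 51.6%, and 1 of 5 had no overlap, beside 21.9%, so these counts were not above the background.

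With the cow as a replicate block, which compares the libraries of the same animal, limma called miR-100 and miR-99a-5p, 2 members, beside 7.95% of all miRNAs tested as higher in sera, and 0 as higher in exosomes, beside 1.64%. Whatever the fold, 4 members had a blocked FDR under 0.05 and were higher in sera, beside 23.0% of all, and 0 were higher in exosomes, beside 3.29%. The other two were miR-125a (FDR = 2.13e-05) and miR-125b (FDR = 0.000384). Of the members with 10 or more reads in each library, 2 of 5 did so, beside 49.2% of such miRNAs.

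EdgeR with the block called 0 members past both thresholds, beside 3.56% in either direction, and gave 4 an FDR under 0.05 as higher in sera, beside 15.1% of all, and miR-10b as higher in exosomes, beside 6.58%. The 4 were miR-100, miR-99a-5p, miR-125a (log2 FC of 0.48, FDR = 0.0103) and miR-125b (0.66, FDR = 0.00982). For miR-125a the FDR was 0.0694 without cow 2 (log2 FC of 0.51) and 0.171 without cow 4 (0.38). For miR-125b it was 0.0565 without cow 1 (0.54), 0.0552 without cow 2 (0.69) and 0.0741 without cow 4 (0.59). These small FDR values come from a spread estimated across many miRNAs with 4 cows, and a single miRNA's spread between animals is known far less well.

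**Figure D3:**
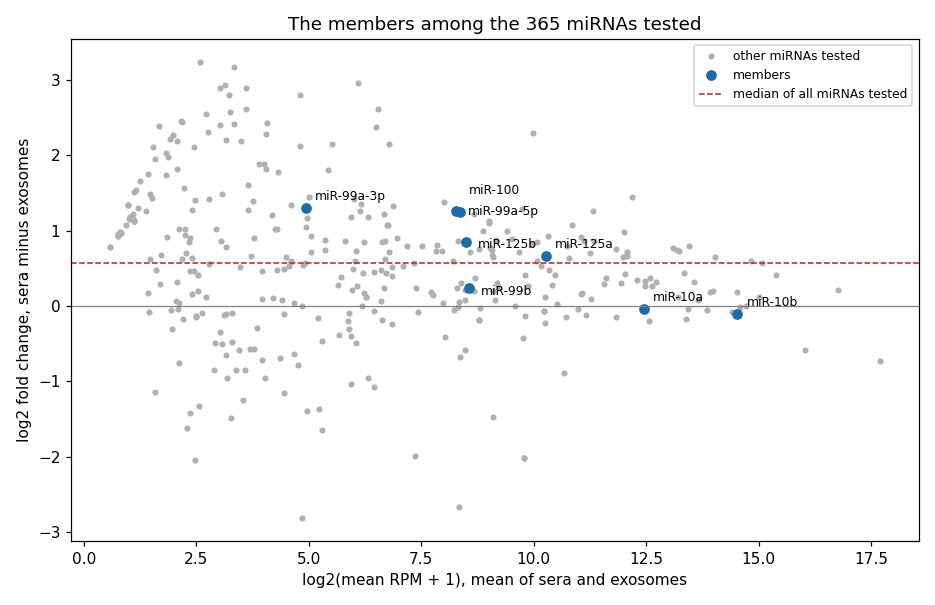
Log2 fold change of each miRNA tested (y axis, sera minus exosomes) against log2 of its mean RPM + 1 (x axis), with the 8 members marked and labelled and the median of all miRNAs as a dashed line (0.57). MiR-10a, miR-10b and miR-99b lie below the line and miR-100, miR-99a-5p, miR-99a-3p, miR-125b and miR-125a above it, with miR-125a close to it. The place of miR-99a-3p rests on a library with 0 reads.

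Whether members differed between cows was tested with a limma F test of the cow with the sample type as a covariate, for which the serum and the exosomes of a cow served as its pair of measurements. Both come from 1 blood sample, so the test compares these blood samples. Of the 8 members 5 had an FDR under 0.05, beside 25.5% of all miRNAs tested, and among those with 10 or more reads in each library 3 of 5, beside 59.4%. EdgeR on the recovered reads gave 6 of 8, beside 24.7% of all. Here too, small FDR values rest on a spread estimated across many miRNAs.

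Among the members miR-125a had the smallest FDR (4.67e-10). It was high in cow 4 and low in cow 3 among sera, and its FDR was at most 0.00166 whichever cow was left out with both libraries. MiR-10a (FDR = 1.92e-05) was lowest in cow 2, and without cow 2 its FDR was 0.119. MiR-10b (FDR = 0.000126) was high in both libraries of cow 4, and the FDR was 0.237 without cow 4, 0.167 without its serum and 0.0591 without its exosomes. MiR-100 (FDR = 6.74e-05) was lowest in cow 3, and its FDR was 0.747 without cow 3 and 0.594 without the exosomes of cow 3. MiR-99a-5p (FDR = 0.000115) had an FDR of 0.000642 to 0.0307 when each cow was left out. Without cow 1, the cow with high muscle miRNAs, these 5 members had an FDR of at most 0.0307.

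MiR-99b had an FDR of 0.0926 with limma, against 0.045 with edgeR, and the former was 0.0193 among miRNAs with 10 or more reads in each library, 0.0277 without the serum of cow 1 and 0.0201 without both libraries of cow 1. MiR-125b had an FDR of 0.238. The FDR of miR-99a-3p was also 0.238, and it was 0.0254 without the serum of cow 2.

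The share of a member among those with its seed does not depend on the denominator of RPM. MiR-10a made up 22.1%, 17.2%, 21.4% and 17.9% of the miR-10a and miR-10b reads in the serum of cows 1 to 4, and 19.7%, 16.7%, 21.5% and 17.8% of those in exosomes. The share was higher in cows 1 and 3 than in cows 2 and 4 in both sample types. Among sera the intervals of cows 1 and 3 began at 20.4% or above, and those of cows 2 and 4 ended at 18.5% or below. The serum and exosome intervals of the same cow overlapped in 4 of 4 cows.

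MiR-125b made up 24.4% ± 4.60 of the miR-125a and miR-125b reads for sera and 22.3% ± 6.04 for exosomes (SD, n = 4). The highest share was that of cow 3, with 29.1% and 31.1%, and the lowest that of cow 4, with 18.5% and 17.5%. The intervals of the sample types overlapped in every cow, so a difference in this share was not detectable at this depth.

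Within the miR-99 and miR-100 seed the 3 members had nearly equal parts in sera, with 35.3% ± 3.21 for miR-100, 32.5% ± 2.60 for miR-99a-5p and 32.3% ± 2.35 for miR-99b (SD, n = 4). In exosomes miR-99b made up 35.8%, 35.3%, 70.5% and 51.4% in cows 1 to 4, more than in the serum of the same cow in 4 of 4 cows. The intervals did not overlap in cow 3, which reached at most 41.3% in serum and at least 54.8% in exosomes (from 44 reads), nor in cow 4, with at most 36.4% and at least 42.8%. In cows 1 and 2 they overlapped.

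**Figure D4:**
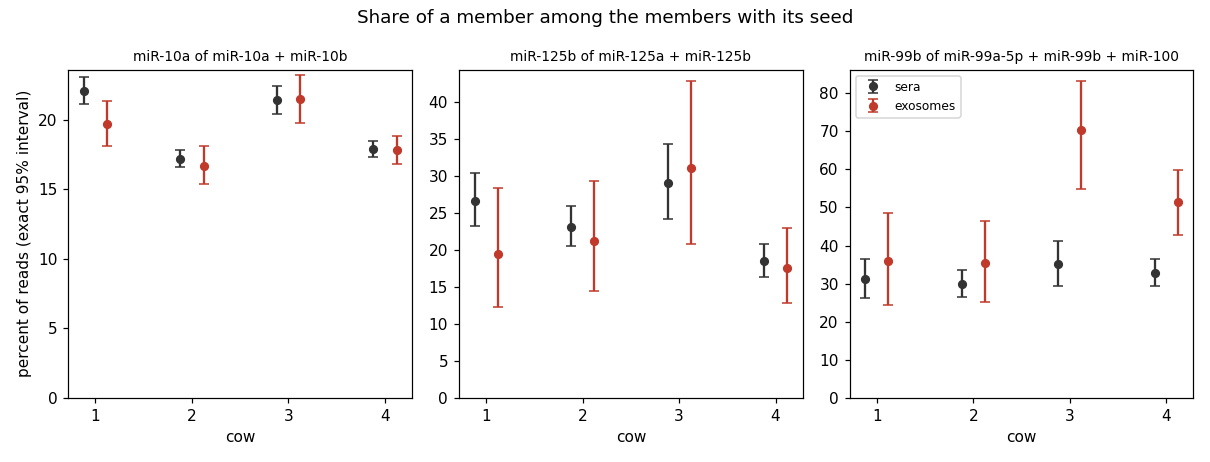
Percent of the reads of a seed group that belong to miR-10a, miR-125b or miR-99b (y axis) in the serum and the exosomes of each cow, with exact binomial 95% intervals. The miR-10a share is close in both libraries of cows 2, 3 and 4, and the miR-99b share is 70.5% in the exosomes of cow 3 against 35.2% in its serum.

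The miRNAs encoded next to the members or in the HOX clusters were listed as let-7a-5p, let-7a-3p, let-7c, let-7e, miR-196a, miR-196b and miR-615. Of these 7 miRNAs 6 were tested, and 0 were past both thresholds by limma. Their median log2 FC was 0.47. Let-7e had 193 ± 53.3 RPM for sera and 127 ± 13.9 RPM for exosomes (SD, n = 4), with a log2 FC of 0.58 (limma, FDR = 0.307), between those of its cluster neighbours miR-99b and miR-125a. Let-7c had 459 ± 54.1 RPM for sera and 365 ± 115 RPM for exosomes (SD, n = 4, log2 FC of 0.37, limma FDR = 0.409). Let-7a-5p, which several genes encode, had 1989 ± 482 RPM for sera and 2069 ± 548 RPM for exosomes (SD, n = 4, log2 FC of -0.05), and it was the 1 miRNA of the list that differed between cows (limma, FDR = 0.00128). MiR-196b, of the HOX clusters, had 23 reads over all sera and 3 over all exosomes, and with the block its FDR was 0.0411 by limma and 0.686 by edgeR. MiR-196a had 7 and 1 reads, and miR-615 had 0.

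The profiles of miR-10b, miR-125a and miR-100 over the 8 libraries were compared with those of 123 miRNAs outside the family that every library held at 10 or more reads, by the root mean square difference of log2(RPM + 1) after centring each miRNA on its mean. The libraries are pairs from 4 cows, so the values are a description. Closest to miR-10b were miR-101 with a difference of 0.17, miR-660 with 0.22 and miR-497 with 0.30, where the median was 0.55 and the value for miR-10a was 0.19. For miR-125a they were miR-130a with 0.32, miR-141 with 0.34 and miR-192 with 0.37, against a median of 0.70 and a value of 0.38 for miR-125b. The differences of miR-100 were larger, with 0.55 for miR-200a and 0.64 for both miR-144 and miR-199b, against a median of 0.95, and with 0.54 for both miR-125a and miR-99a-5p. Counting error enlarges such differences, and it was 40.8% of the level of miR-100 in the exosomes of cow 3. Its part was not tested.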

How the data were processed

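The authors removed reads of low quality with CASAVA 1.8, trimmed adaptors with sRNAbench and aligned reads over a minimum length to the bovine miRNAs of miRBase, treating each library on its own. They deposited RPM values, in 1 table per library. Whole reads were recovered from the smallest step in RPM (100% of values whole within 0.051 RPM).

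The main test was limma 3.58.1, with lmFit and a trended eBayes. It covered all miRNAs past the filter, with Benjamini-Hochberg adjustment, and its scale was log2(RPM + 1). On this scale the FC of a miRNA with few reads depends on the value added to RPM. For miR-99a-3p the log2 FC was 1.30, against 2.12 with 0.1 added, 0.55 with 10 added and 0.46 by edgeR with library totals. Alternatives were edgeR 4.0.16 (quasi-likelihood, TMM) and DESeq2 1.42.0 on recovered reads, a replicate block for the cow, pseudocounts of 0.1 and 10, other filters and scalings, and libraries left out in turn. Same-numbered libraries come from the same cow, and over 128 miRNAs their deviations from the mean of their sample type had a mean r of 0.806 (0.740 to 0.860), against -0.244 for different cows. Deviations from a mean add up to 0, which pulls the value for different cows below 0 when that for the same cow is above 0. The former is therefore no separate evidence. R 4.3.3, Python 3.11.15, SciPy 1.17.1 and matplotlib 3.10.9 were used.

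The members, lists and tests were chosen with earlier results of these data known. By rule all members, the listed neighbours and the 3 miRNAs nearest in profile to miR-10b, miR-125a and miR-100 were named. Marker lists came from general knowledge. Sequences were not used here.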

Additional observations from a re-analysis of the deposited data

Results flagged for a closer look

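Of 36 sets of 4 libraries examined for a library far from the others (levels of 8 members and 6 shares within the family and 4 of all miRNA reads, for each sample type), 1 stood out, where chance gives about 1 in 20. MiR-10b had 31329 RPM in the serum of cow 4 against 19435 to 20331 RPM in the other 3 sera, a gap of 0.925 of the whole range. The exosomes of cow 4 had 30055 RPM, and those of cow 1 had 31558 RPM.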

How the results depend on the processing

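Over the 365 miRNAs, limma called 11 as higher in sera and 5 in exosomes. With the replicate block 29 were higher in sera. EdgeR gave 6 in sera and 8 in exosomes, with 13 in exosomes under the replicate block, and DESeq2 gave 3 and 13. Scaled to reads other than miR-486, 6 were higher in sera. Scaled to sequences in analysis, limma called 0 in sera, with 3 past the fold at an unadjusted p under 0.05. Leaving out 1 library gave 7 (serum of cow 3) to 18 (exosomes of cow 3) in sera and 3 (serum of cow 2 or of cow 4) to 5 in exosomes. The 93 miRNAs that differed between cows became 60 (exosomes of cow 4) to 123, a cow left with 1 library being assumed to vary like the others. The family's share was 0.211% of the sequences in analysis for sera and 0.373% for exosomes, and 4.39% of the reads other than miR-486 for exosomes.

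Of 213 alternative log2 FC values of members, 190 kept their direction and side of the thresholds, 11 gained a call and 12 turned direction. The latter were miR-125a (-0.043) and miR-99b (-0.46) per sequence in analysis, miR-99b by DESeq2 (-0.091), and miR-10a (-0.21 to 0.12, turned at 0.039, 0.099 and 0.12) and miR-10b (-0.27 to 0.030, turned at 0.0064 and 0.030) without 1 library. They also included miR-10a (0.089) and miR-10b (0.071) by limma with the replicate block without cow 1, and miR-99a-3p (-0.22) and miR-99b (-0.0081) by edgeR with the block without cow 2. The fits without both libraries of a cow were chosen after seeing the data, and the causes were not tested. Relative to the median of all miRNAs, miR-125a was at 0.10 on the main scale and 0.09 per sequence, and miR-99b at -0.34 and -0.33. With all libraries, the replicate block changed no call of a member other than those given with the results. Depth limits miR-100, miR-99a-5p and miR-99a-3p most, at 0 to 41 reads per exosome library. MiR-125b had 20 to 41 reads per exosome library.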
